A study of Mus musculus with 2 samples.

Results

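Vcan Thbs1 F10 inflammatory monocytes were taken from the CD45-positive cells of mouse CT26 tumours by their own transcripts. A cell barcode was a member if it held at least 10 Lyz2 molecules and at least 4 molecules of Vcan, Thbs1 and F10 together. Members also had fewer than 3 molecules of Rsad2, Ifit2 and Cmpk2, at most 10 of C1qa, C1qb and C1qc, and fewer than 3 of Ace, Adgre4 and Treml4. They had no Cxcr2 molecule, at most 1 of Cd209a and at most 1 of Cd3d, Cd3e and Cd3g. Molecules were counted as unique molecular identifiers (UMIs), in barcodes with at least 200 genes and at most 10% mitochondrial UMIs. The rule found 2333 members among 27362 kept barcodes, of which 1404 of 13875 were in the Arg library and 929 of 13487 in Control.

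The Arg library came from BALB/c mice on an isocaloric diet without arginine and the Control library from BALB/c mice on a normal diet, with 1 library per diet. The label of the Arg library names no diet, so its arm was read from the series' design text. In both arms mice aged 5 weeks started the diet 1 week before subcutaneous injection of CT26, a colorectal carcinoma line of the same strain, and day 20 tumours were used. Tumours were digested, CD45-positive cells were enriched with magnetic beads, and 10x Genomics 3′ v3 libraries were made. The number of mice behind a library is not stated in these sources. Every difference below is therefore between 2 libraries, with no replicate check, and no test was run. Intervals are 95% intervals that cover counting error only, exact Clopper-Pearson for shares and exact conditional binomial for ratios. Those on ratios of summed UMIs treat UMIs of the same cell as independent.

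Classical monocytes leave the bone marrow through the chemokine receptor CCR2, enter inflamed tissue and tumours, and there take on features of macrophages or of antigen-presenting cells. Vcan encodes versican, a chondroitin sulfate proteoglycan of the extracellular matrix, and Thbs1 encodes thrombospondin-1, a secreted glycoprotein that binds matrix and can activate latent TGF-beta. F10 encodes coagulation factor X, whose active form cleaves prothrombin, and Inhba encodes the subunit that forms activin A, a ligand of the TGF-beta family. On GRCm38 with GENCODE M21 annotation, Vcan lies on chromosome 13, 89655312 to 89742509, Thbs1 on chromosome 2, 118111876 to 118127133, F10 on chromosome 8, 13037308 to 13056676 and Inhba on chromosome 13, 16011851 to 16031621.

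The genes of the rule set the members apart by construction, so their values are a description. Levels are given as CPM, the summed UMIs of all cells of a group in a library scaled to a total of 1000000, and a level cannot be compared between genes. Thbs1 stood at 892 CPM in the Arg library and 1805 CPM in Control, Vcan at 261 (Arg) and 423 (Control) CPM, and F10 at 249 (Arg) and 207 (Control) CPM. A cell qualified on a sum, and the sum was made up differently in the libraries. In the Arg library 77.2% of members had a Thbs1 UMI, 59.1% a Vcan UMI, 68.3% an F10 UMI and 28.8% all 3, whereas in the Control library 91.6% had Thbs1, 73.1% Vcan, 64.6% F10 and 44.2% all 3. Members with no Thbs1 UMI were 22.8% in the Arg library and 8.40% in Control. The median sum was 10 UMIs in Arg members (quartiles 6 and 18, highest 212) and 16 UMIs in Control members (quartiles 8 and 33, highest 171). At the threshold, 171 Arg cells and 71 Control cells had a sum of exactly 4, and 229 Arg cells and 81 Control cells with a sum of 3 fell just outside. Inhba stood at 560.2 CPM in the Arg cells with 4 UMIs and 365 CPM in the Arg cells with 3, against 144 and 358 CPM in the Control cells with 4 and with 3 UMIs.

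Inhba was not in the rule. It stood at 649.9 CPM in Arg members and 401 CPM in Control members. Cells that met every other condition but had at most 3 UMIs of Vcan, Thbs1 and F10 together are called Vcan-low monocytes here. These cells (1549 Arg and 646 Control) had 273 (Arg) and 129 (Control) CPM of Inhba. Macrophages with more than 10 C1q UMIs (2336 and 3897 cells) had 108 (Arg) and 18.6 (Control) CPM, and T cells (1986 and 2282 cells) 31.2 (Arg) and 11.1 (Control) CPM. In each library the order from high to low was members, cells that passed the Vcan, Thbs1 and F10 limit but had 3 or more Rsad2, Ifit2 and Cmpk2 UMIs (interferon-high Vcan cells, 463 (Arg) and 324 (Control) CPM), Vcan-low monocytes, nonclassical cells with 3 or more Ace, Adgre4 and Treml4 UMIs (144 (Arg) and 81.3 (Control) CPM), C1q macrophages and T cells.

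**Figure D1:**
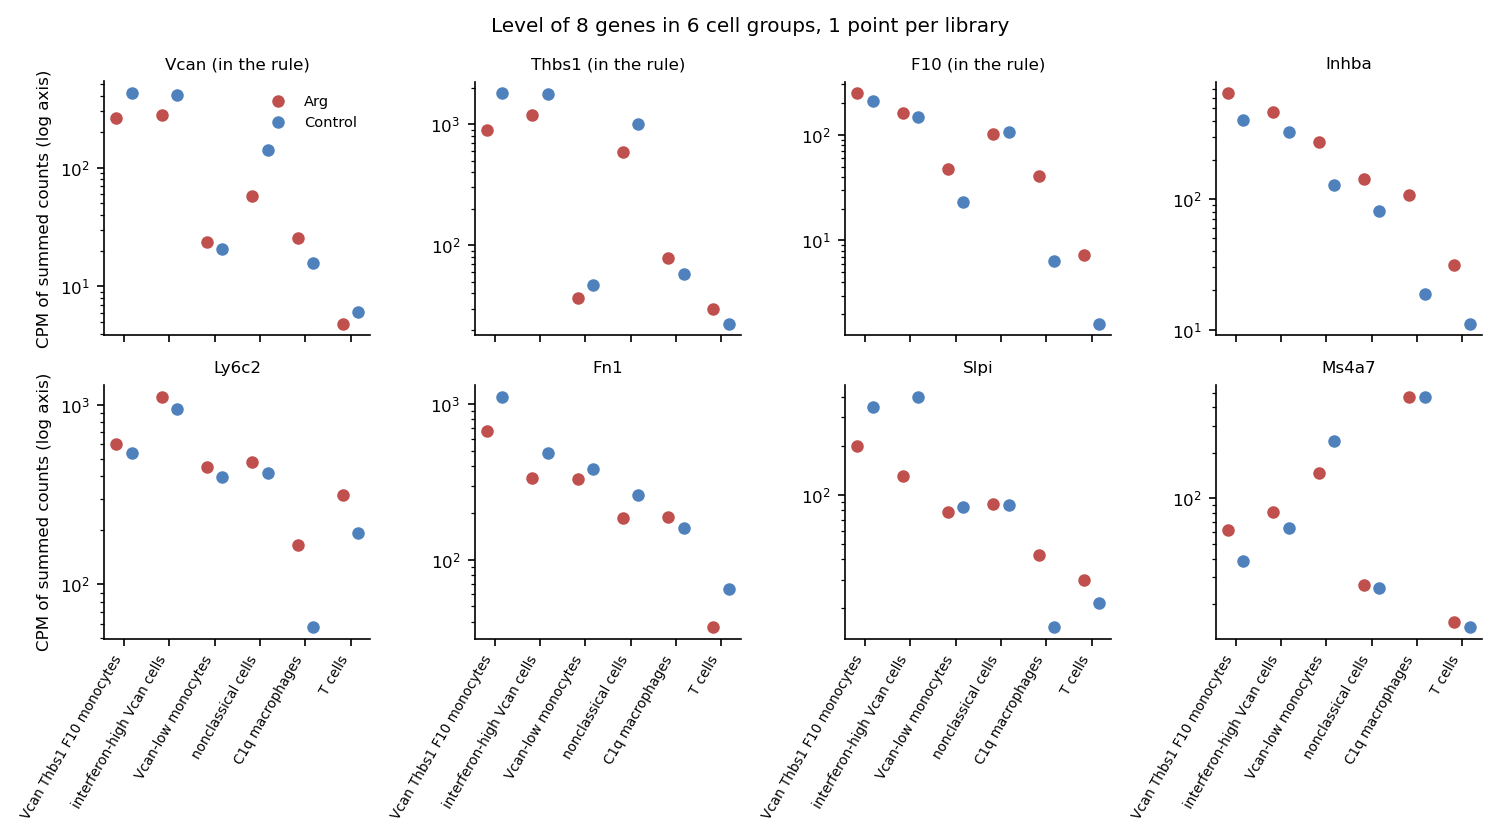
CPM of summed counts (log axis) of 8 genes in 6 cell groups, with 1 point per library and Arg left of Control. Vcan, Thbs1 and F10 chose the members, Inhba is highest in the members of both libraries, and Ms4a7 is highest in C1q macrophages.

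The label was checked against marker lists. Of the classical monocyte list, Ly6c2 stood at 602 CPM in Arg and 537 CPM in Control members and Ccr2 at 574 (Arg) and 552 (Control) CPM, against 166 (Arg) and 57.7 (Control) CPM of Ly6c2 in C1q macrophages. Il1b, which encodes the cytokine IL-1 beta, was at 3976 CPM in Arg and 4170.2 CPM in Control members, above the 2914 (Arg) and 2668 (Control) CPM of Vcan-low monocytes, but nonclassical cells had more (4653 (Arg) and 6478 (Control) CPM). The 15 genes of the neutrophil list summed to 333 CPM in Arg and 377 CPM in Control members, with 1 of 5 tested genes higher in Arg (Mmp9) and 2 lower (S100a8 and S100a9). Its defining genes Ly6g and Cxcr1 had 0 UMIs in Arg members and 1 UMI each in Control members. The 10 T cell markers summed to 43.1 CPM in Arg and 35.8 CPM in Control members and the 9 B cell markers to 37.5 CPM in Arg and 33.4 CPM in Control members. Ptprc, which encodes CD45, had a UMI in 95.2% of Arg and 91.9% of Control members. The classical monocyte list summed to 17505 (Arg) and 20577 (Control) CPM in members. It summed to 19180 (Arg) and 20838 (Control) CPM in interferon-high Vcan cells and to 15658 (Arg) and 19736 (Control) CPM in nonclassical cells. In C1q macrophages it summed to 8744 (Arg) and 6986 (Control) CPM. Summed over all members, the data thus carried monocyte markers as the label says, but these were not particular to members, and the members were mixed. In the 29.8% of Arg and 27.2% of Control members with at least 3 Arg1 UMIs, Ly6c2 stood at 211 and 197 CPM. The macrophage maturation list summed to 8694 (Arg) and 7520 (Control) CPM in members, and to 20357 (Arg) and 16569 (Control) CPM in C1q macrophages. The label's word inflammatory rests here on Il1b and the inflammatory cytokine list (median log2 ratios over Vcan-low monocytes 0.31 in Arg and 0.59 in Control). Of its 8 tested genes 5 lay above 0 in each library. The chemokine list did not set members apart (medians 0.005 and -0.09). The cytokine list was not particular to members, where it summed to 5331 (Arg) and 5528 (Control) CPM. It summed to 5188 (Arg) and 5526 (Control) CPM in interferon-high Vcan cells, and to 5358 (Arg) and 7492 (Control) CPM in nonclassical cells.

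Some members carried transcripts of tumour or stromal cells. At least 3 UMIs of the fibroblast and CT26 epithelial marker lists together were present in 12 Arg members (0.855%) and 36 Control members (3.88%). These cells were deep, with medians of 40577 UMIs (Arg) and 32054 UMIs (Control), against 8780.5 (Arg) and 8213 (Control) UMIs in the other members. A raw UMI count picked them, which favours deep cells, so leaving them out also removes deep cells. More than 30000 UMIs were present in 7 of the 12 Arg cells and 21 of the 36 Control cells. The marker-carrying cells held 2.85% of all member UMIs in the Arg library and 14.2% in Control. The fibroblast list summed to 30.5 CPM in Arg and 343 CPM in Control members, and the CT26 list to 7.49 CPM in Arg and 28.8 CPM in Control members, with Krt8 at 0 in both. A doublet caller marked 5 of the 12 Arg cells and 11 of the 36 Control cells. Every ratio between the libraries of a named or listed gene was also computed without these marker-carrying cells, a choice made after seeing the data, and the value is given where it ends a call. The libraries held 155927693 UMIs (Arg) and 191505551 UMIs (Control), and members had medians of 8826 and 8312 UMIs. The libraries shared 44 barcode sequences, of which 8 Arg and 5 Control members carried one.

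The members took a larger share of the Arg library. They were 10.1% of kept Arg cells (95% interval 9.62 to 10.6) and 6.89% of kept Control cells (6.47 to 7.33), a ratio of 1.47 (1.35 to 1.6). Among cells with at least 10 Lyz2 UMIs they were 19.6% in the Arg library and 14.0% in Control. Vcan-low monocytes also took a larger share, 11.2% of Arg and 4.79% of Control cells, and so did interferon-high Vcan cells (4.30% and 1.86%), whereas C1q macrophages were 16.8% of Arg and 28.9% of Control cells. The ratio depended on the sum required: as log2, it was 0.55 at 4 UMIs, 0.77 at 2 UMIs and 0.28 at 8 UMIs.

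Inside each library the members were set beside Vcan-low monocytes, to ask what else the Vcan, Thbs1 and F10 cells carried. The Vcan-low group was set by Lyz2 and the exclusions, with no monocyte marker required. Its classical monocyte list summed to 13690 (Arg) and 13460 (Control) CPM and its macrophage maturation list to 10180 (Arg) and 9820 (Control) CPM. Its B cell markers summed to 577 CPM in Arg and 44.0 CPM in Control. How far the mix of cells enters the contrast was not tested. A gene counted here if it had at least 50 CPM in either group of both libraries and differed at least 2-fold, on a log2 scale after adding 5 CPM. In both libraries 13 genes were higher in members (0.417% of 3115 genes) and 5 were lower (0.161%). These lists were separated by the rule itself, so the genes are a description. By library, 15 genes were higher (0.451% of 3325) and 12 lower (0.361%) in the Arg library, and 77 were higher (2.32% of 3316) and 25 lower (0.754%) in the Control library. Of the genes testable in both libraries, the 13 shared genes were 86.7% of those higher in the Arg library and 22.8% of those higher in the Control library.

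Of the 13 genes higher in members, the 12 ranked highest are named here, with Inhba described above. Slpi, a secreted inhibitor of serine proteases, stood at 199.6 CPM in Arg members against 78.2 CPM in Arg Vcan-low monocytes (2.55-fold), and at 349.7 against 84.4 CPM in the Control library (4.15-fold). Fn1, which encodes fibronectin, was 2.05-fold higher in the Arg library and 2.94-fold higher in the Control library, and Tnfaip6, whose product binds hyaluronan, 2.46-fold (Arg) and 4.43-fold (Control). Chst11, an enzyme that sulfates chondroitin, the sugar chain that versican carries, was at 89.4 CPM in Arg and 100.5 CPM in Control members, against 40.3 (Arg) and 25.9 (Control) CPM in Vcan-low monocytes. Areg, an EGF receptor ligand, was 2.45-fold (Arg) and 3.32-fold (Control) higher, and the chemokine gene Ccl24 2.31-fold (Arg) and 5.04-fold (Control). Plcb1, a phospholipase C, had the highest of these ratios in the Arg library (3.10-fold in Arg and 4.64-fold in Control), and Dmkn, Trem1 (an activating receptor of myeloid cells), Itga1 (integrin alpha 1) and Arhgap26 were the others of the 12.

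Most genes of macrophage maturation lay below 0 in members over Vcan-low monocytes, with 4 of 18 above 0 in the Arg library (median log2 ratio -0.32) and 4 of 20 in the Control library (-0.49). Ms4a7 stood at 61.4 CPM in Arg members against 147 CPM in Arg Vcan-low monocytes, and at 38.3 against 241 CPM in the Control library. Ch25h, which makes 25-hydroxycholesterol, was at 16.8 CPM in Arg and 12.2 CPM in Control members, against 60.6 (Arg) and 86.5 (Control) CPM. Cd72, Ckb, Cxcl9, Ccl12, Serpina3g, Cadm1, Plau, Selenom, Stab1 and Ly6a made up the rest of the 12 lowest genes, of which Ch25h, Cd72, Ckb, Ms4a7 and Cxcl9 passed 2-fold in both libraries. Across lists, all 17 classical monocyte genes with at least 50 CPM lay above 0 in the Arg library (median log2 ratio 0.39) and 17 of 19 in the Control library (0.68), beside medians over all genes of 0.02 and 0.03. Glycolysis and hypoxia genes lay above 0 for 22 of 23 genes in each library (medians 0.22 and 0.38). All 20 ribosomal protein genes lay below 0 in each library (medians -0.17 and -0.25), and the 10 MHC class II genes tested in the Arg library had a median of -0.32 and the 8 in the Control library -0.91.

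**Figure D2:**
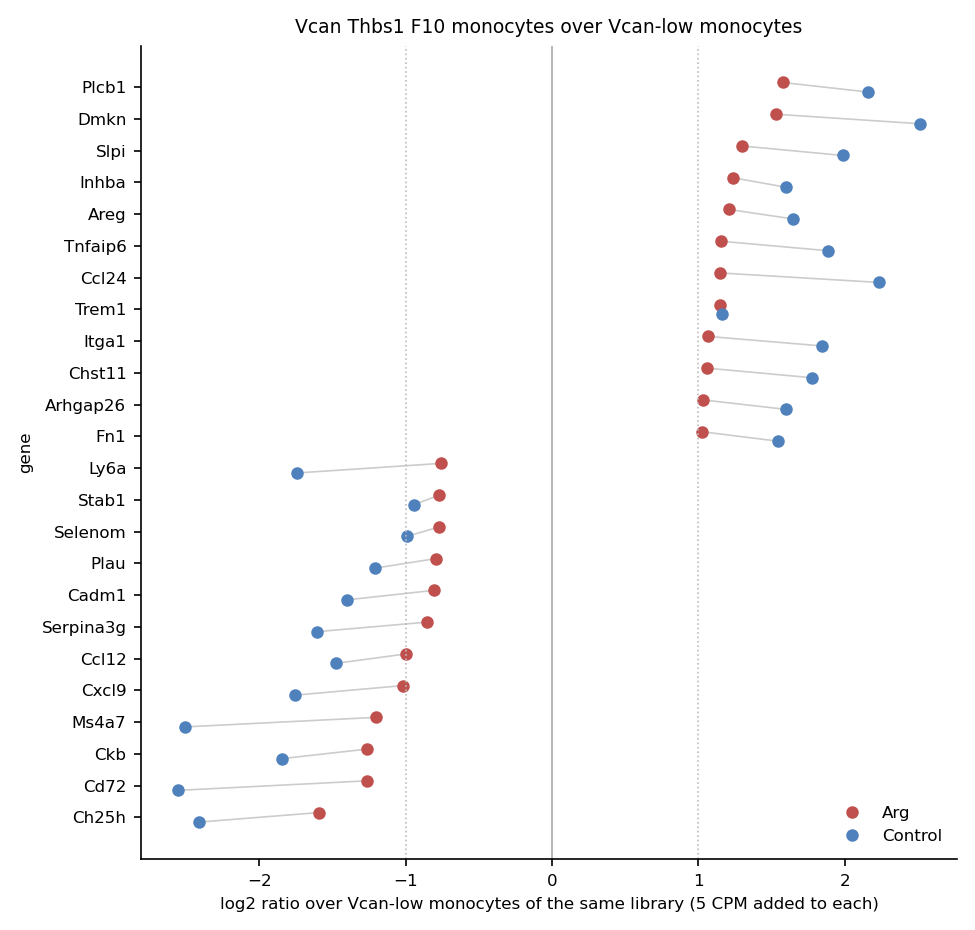
log2 ratio of members over Vcan-low monocytes of the same library for the 12 genes with the highest and the 12 with the lowest ratio in both libraries, with Arg above Control for each gene. Dotted lines mark a 2-fold difference. The Control ratio is farther from 0 for every gene shown, with Trem1 nearly equal (1.14 in Arg and 1.16 in Control).

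Between the libraries, 3351 genes had at least 50 CPM in the members of either library. At least 1.5-fold higher in Arg members were 134 genes (4.0%) and at least 1.5-fold lower 103 genes (3.07%), and the median over all genes was 0.04 on the log2 scale. Without the marker-carrying cells 109 genes were higher and 75 lower. These shares are the background for the lists below, which were chosen with earlier results of these data known and support no claim of their own.

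**Figure D3:**
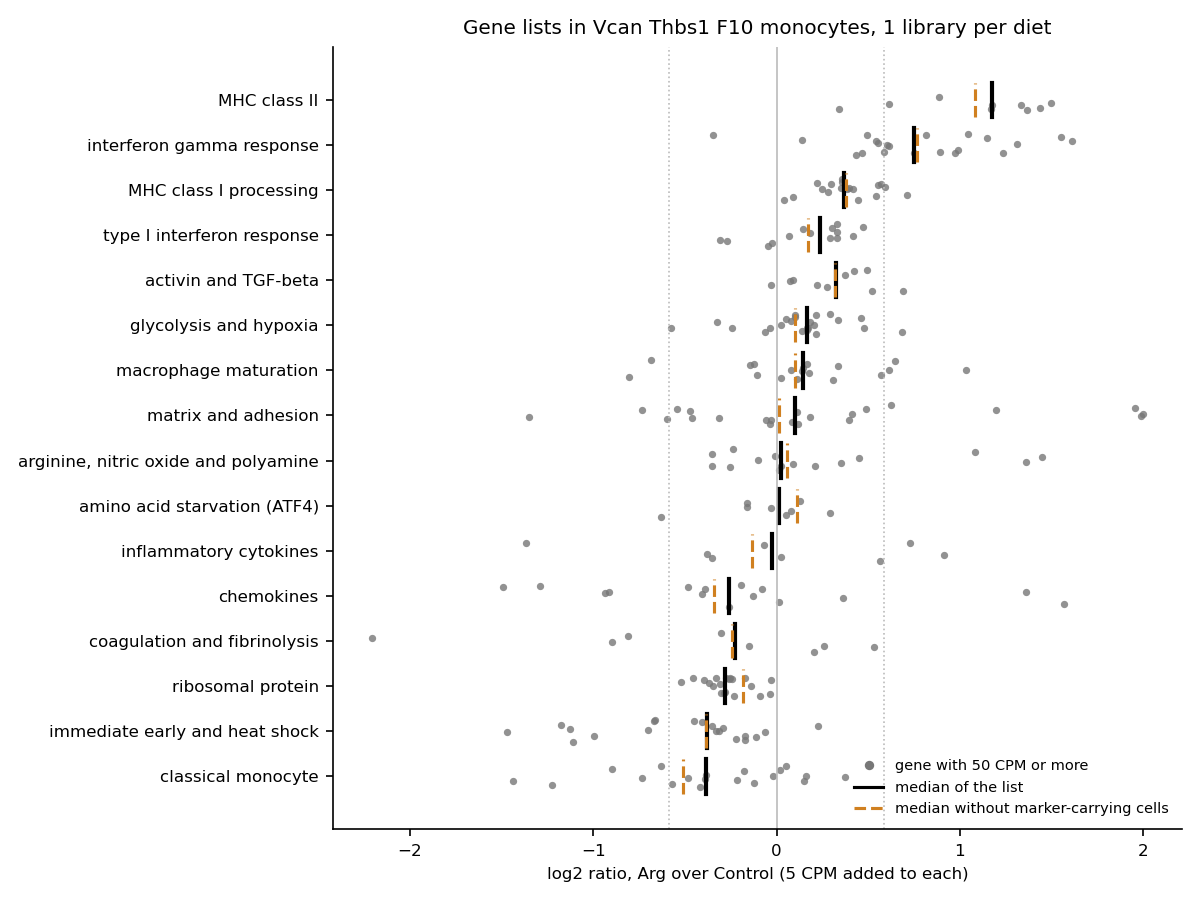
log2 ratio (Arg over Control, 5 CPM added) in members for 16 gene lists. Grey points are genes with at least 50 CPM in either library, black bars list medians, dashed orange bars the medians without the marker-carrying cells, and dotted lines the 1.5-fold limits. MHC class II has the highest median (1.18) and the classical monocyte list the lowest (-0.38).

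Genes of antigen presentation on MHC class II were higher in Arg members. Of 9 genes in the list with enough signal, 8 passed 1.5-fold, none was lower, and the median log2 ratio was 1.18. Without the marker-carrying cells 7 passed, Ctss no longer among them (log2 ratio 0.50), and the median was 1.08. H2-Aa, an alpha chain, stood at 3586 CPM in Arg and 1387 CPM in Control members, a 2.58-fold difference (2.54 to 2.63). H2-Ab1 was at 2051 (Arg) and 755 (Control) CPM, H2-Eb1 at 1959 (Arg) and 691 (Control) CPM, and the invariant chain gene Cd74 at 4698 (Arg) and 2088 (Control) CPM. H2-DMb1, part of the peptide-loading molecule, was at 404 CPM in Arg and 157 CPM in Control members, and Ctss, the protease that trims the invariant chain, at 2042 (Arg) and 1333 (Control) CPM. Ifi30 did not pass (422 (Arg) and 332 (Control) CPM).

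MHC class II transcripts were also counted in T cells, which in mice are not known to make them, and these give a level that free RNA or mixed droplets can reach. After thinning every cell to 3000 UMIs, which left out 7 Arg and 13 Control members and 70 Arg and 92 Control T cells, an H2-Aa UMI was present in 82.0% of Arg and 52.2% of Control members, and in 37.9% of Arg and 20.2% of Control T cells. Unthinned shares were 92.6% and 68.9% in members and 67.5% and 42.6% in T cells. The members lay above the T cells in each library, by more than counting error. The list median was 0.87 in T cells, 0.68 in Vcan-low monocytes and 0.93 in C1q macrophages, beside medians over all genes of 0.02, 0.08 and 0.03 in these groups. In interferon-high Vcan cells it was 0.96, and in nonclassical cells 0.29, where none of 9 genes passed 1.5-fold. Conventional dendritic cell markers moved the same way in members: the type 2 list summed to 385 CPM in Arg and 152 CPM in Control members, and the type 1 list to 779 CPM in Arg and 513 CPM in Control members, with 4 of 4 tested type 1 genes above 0 and Naaa past 1.5-fold (log2 ratio 1.02). H2-DMb2 belongs to both the type 2 and the MHC class II list, so these lists overlap. The plasmacytoid dendritic cell list did not move this way (549 CPM in Arg and 615 CPM in Control members, median -0.06). The defining type 1 genes Xcr1 and Clec9a were at 3.88 and 7.02 CPM in Arg and at 1.35 and 1.67 CPM in Control members. The part of dendritic cells in the difference was not tested. How much of the members' difference comes from free RNA was not tested.

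Since these genes differed together, the promoter stretches of 3 of them are shown, with the letters ATTGG of the Y box and the longest run that H2-Eb1 and H2-DMb1 share (AACTGATGATGCT) in capitals. The run lies where the X box of such promoters is known, and X and Y boxes are known to be bound by the RFX and NF-Y complexes on which CIITA acts. The sequences are RefSeq promoters on GRCm38.p6, 5′ to 3′ on the gene's strand, from 115 to 36 bases before the start.
H2-Aa (chr17:34287859-34287938, minus strand): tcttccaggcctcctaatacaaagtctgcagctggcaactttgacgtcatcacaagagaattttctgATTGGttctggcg
H2-Eb1 (chr17:34305752-34305831, plus strand): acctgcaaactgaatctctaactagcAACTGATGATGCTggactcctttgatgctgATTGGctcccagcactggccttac
H2-DMb1 (chr17:34153076-34153155, plus strand): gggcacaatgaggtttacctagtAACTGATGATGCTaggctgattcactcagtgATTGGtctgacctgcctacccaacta
Searched on both strands in windows of 250 bases before to 50 bases after the start, ATTGG was in 37.4% of 32851 promoters and in 6 of the 8 MHC class II genes of the list found in the table. The shared run was in 3 of the 32851 promoters, among them those of H2-Eb1 and H2-DMb1, from which it was taken. Ciita, the coactivator itself, stood at 46.0 CPM in Arg and 17.4 CPM in Control members, under the 50 CPM limit in both.

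Interferon gamma response genes were higher in Arg members as well. Of 21 genes tested 14 passed 1.5-fold and none was lower, with a median of 0.75. Without the marker-carrying cells 12 passed, Cd274 and Igtp no longer among them (log2 ratios 0.52 and 0.55), and the median was 0.77. Cxcl9, a chemokine for activated T cells, stood at 425 CPM in Arg and 178 CPM in Control members (2.39-fold). The GTPase gene Iigp1 was at 287 (Arg) and 113 (Control) CPM, Gbp4 at 215 (Arg) and 105 (Control) CPM, and Socs1, an inhibitor of JAK signalling, at 217 (Arg) and 108 (Control) CPM. Irf1 (363 (Arg) and 246 (Control) CPM) lay just under the limit, and Socs3 was the only tested gene of the list below 0 (log2 ratio -0.35). Ly6a and Ly6i, surface proteins of a family with near-identical copies among which reads can be shared, were at 595 (Arg) and 199.8 (Control) CPM and at 83.7 (Arg) and 24 (Control) CPM. The median was 0.74 in Vcan-low monocytes and 0.39 in interferon-high Vcan cells, beside 0.75 in members. It was 0.72 in C1q macrophages, 0.52 in nonclassical cells and 0.50 in T cells, so the difference was not particular to members.

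The inhibitory ligand genes for PD-1 were both higher. Cd274, which encodes PD-L1, stood at 616 CPM in Arg and 400.2 CPM in Control members (1.54-fold, and under 1.5-fold without the marker-carrying cells, with a log2 ratio of 0.52). After thinning 71.3% of Arg and 53.8% of Control members had a UMI. T cells, which express Cd274 themselves, are no background for it. Pdcd1lg2, which encodes PD-L2, was at 121 CPM in Arg and 22.4 CPM in Control members, a 5.42-fold difference (4.70 to 6.27) and the second largest among the higher genes. The type I interferon list held no gene past 1.5-fold among 14 tested (median 0.24). The rule had capped Rsad2, Ifit2 and Cmpk2, which belong to that response, and so left out cells high in them from both libraries. The list in members therefore cannot decide whether that response differed between the libraries. The MHC class I processing list had 2 of 18 genes past the limit, Tap1 (171 (Arg) and 102 (Control) CPM) and Nlrc5 (70.6 (Arg) and 45.3 (Control) CPM), and all 18 lay above 0 (median 0.37). Nlrc5 did not pass without the marker-carrying cells (log2 ratio 0.55).

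The largest difference among higher genes was that of Mgl2, a C-type lectin of macrophages and dendritic cells, with 163 CPM in Arg members and 25.3 CPM in Control members (6.44-fold, 5.64 to 7.38). It was seen in few cells. After thinning, 12.9% of Arg and 1.75% of Control members had a UMI, against 2.45% and 0.822% of T cells. Of the conventional dendritic cell type 2 list 3 of 11 genes were tested and all lay above 0 (median 1.18). Besides Mgl2, H2-DMb2 passed 1.5-fold, and Tnip3, at 111 (Arg) and 73.8 (Control) CPM, did not. The defining genes were under 50 CPM, with Clec10a at 20.4 CPM in Arg and 13.2 CPM in Control members and Flt3 at 3.61 (Arg) and 2.29 (Control) CPM, and the rule had capped Cd209a. P2ry14, a receptor for UDP-sugars, Hcar2, a receptor for hydroxybutyrate, Ifitm1, AW112010 and Ccl5 were the remaining genes of the 12 highest, between 3.04-fold and 4.85-fold higher in Arg members. Ccl5, at 238 CPM in Arg and 76.7 CPM in Control members, was abundant in T cells (1644 (Arg) and 1314 (Control) CPM). The natural killer cell markers summed to 257 CPM in Arg and 145 CPM in Control members, and both tested ones, Klrk1 (67.9 (Arg) and 30.4 (Control) CPM) and Gzma (105 (Arg) and 65.4 (Control) CPM), passed 1.5-fold. Gzma did not pass without the marker-carrying cells (log2 ratio 0.46), and with called doublets left out it turned to a log2 ratio of -1.18.

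Several matrix-degrading enzymes were higher in Arg members. Mmp12, macrophage elastase, stood at 1991 CPM in Arg and 494 CPM in Control members (4.03-fold, 3.91 to 4.16). Mmp13, a collagenase, was at 270.2 (Arg) and 66.0 (Control) CPM, Mmp9, a gelatinase, at 62.7 (Arg) and 12.1 (Control) CPM, and the membrane-bound Mmp14 at 158 (Arg) and 66.1 (Control) CPM. Mmp9 was seen in few cells, 8.05% of Arg and 3.77% of Control members, and 241 of its 938 Arg UMIs lay in 1 cell. Sdc4, a syndecan, was at 567 (Arg) and 366 (Control) CPM and passed only with the marker-carrying cells (log2 ratio 0.57 without). Mmp19 went the other way (92.8 (Arg) and 143 (Control) CPM), as did Fn1 (673 (Arg) and 1121 (Control) CPM) and Timp1, an inhibitor of these enzymes (49.0 (Arg) and 133 (Control) CPM). For Timp1 67.2% of the Control UMIs lay in the marker-carrying cells, and its log2 ratio was -1.35 with them and -0.77 without. With a common mix of sums Mmp19 (-0.33) and Fn1 (-0.51) did not pass 1.5-fold. In all, 5 of 22 matrix and adhesion genes were higher and 3 lower (median 0.10). Mmp12 was also counted in T cells: after thinning 49.5% of Arg and 23.6% of Control members had a UMI, against 19.5% of Arg and 5.11% of Control T cells.

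Classical monocyte genes were lower in Arg members or differed little. None of 19 tested was 1.5-fold higher and 5 were lower, with a median of -0.38. Leaving out the marker-carrying cells gave 7 lower and a median of -0.51. Giving both libraries the same mix of Vcan, Thbs1 and F10 sums gave a median of -0.21, and Plac8 (-0.53) and Fn1 (-0.51) did not pass then. Hp, which encodes haptoglobin, was at 34.2 CPM in Arg and 101 CPM in Control members, Ifitm6 at 46.9 (Arg) and 116 (Control) CPM, F13a1, the coagulation factor XIII A chain, at 193 (Arg) and 364 (Control) CPM, and Plac8 at 1768 (Arg) and 2739 (Control) CPM. Fn1 was the fifth. The defining genes Ly6c2 (0.16) and Ccr2 (0.05) had log2 ratios near 0.

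Among chemokine genes, Cxcl3 and Cxcl1, which encode attractants of neutrophils, and Ccl2 and Ccl24 were lower in Arg members. Cxcl3 stood at 474 CPM in Arg and 1339 CPM in Control members (2.83-fold higher in Control), Cxcl1 at 221 (Arg) and 547 (Control) CPM, and Cxcl2 at 3944 (Arg) and 5169.8 (Control) CPM, the last under 1.5-fold. Ccl2, the ligand of CCR2, was at 2218 CPM in Arg and 4254 CPM in Control members, and Ccl24 at 149 (Arg) and 286 (Control) CPM. Cxcl16 was higher (232 (Arg) and 87.0 (Control) CPM), as was Ccl5, so that 2 of 15 chemokine genes were higher and 4 lower (median -0.26). Cxcl3 was concentrated in few cells: the 10% of members with the most Cxcl3 UMIs held 92.5% of them in the Arg library and 83.1% in Control. A Cxcl3 UMI was present in 17% of Arg and 28.1% of Control members after thinning, against 3.55% and 2.33% of T cells.

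The 3 Cxcl genes lie together on chromosome 5 and are known targets of NF-kappaB, so their promoter stretches are shown with the longest run they share, GGGAATTTCCC, in capitals. The run has the form of an NF-kappaB site. The stretches run from 110 to 41 bases before the start (RefSeq, GRCm38.p6, plus strand).
Cxcl1 (chr5:90891135-90891204): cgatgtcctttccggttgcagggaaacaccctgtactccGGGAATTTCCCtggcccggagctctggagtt
Cxcl2 (chr5:90903789-90903858): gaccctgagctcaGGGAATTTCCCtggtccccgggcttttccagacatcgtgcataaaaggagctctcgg
Cxcl3 (chr5:90785991-90786060): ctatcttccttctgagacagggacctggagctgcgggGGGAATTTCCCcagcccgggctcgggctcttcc
On either strand the run was in 14 of 32851 promoters (0.0426%). Among the 10 genes of the chemokine list found in the table, it was only in these 3, from which it was taken, so their matches follow from the choice. A match is a description of letters and says nothing of binding. The 3 genes did not differ alike between the libraries, with log2 ratios of -1.29 for Cxcl1, -0.39 for Cxcl2 and -1.49 for Cxcl3.

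Among inflammatory cytokines, Il6 was lower in Arg members (26.0 CPM in Arg and 75.1 CPM in Control) and Il1rn, the IL-1 receptor antagonist, and Il1r2, the decoy receptor, were higher (386 (Arg) and 231 (Control) CPM, and 114 (Arg) and 57.9 (Control) CPM). Il1b itself differed little (3976 (Arg) and 4170.2 (Control) CPM, 0.954-fold), as did Il1a (59.9 (Arg) and 58.8 (Control) CPM). Tnf was at 61.9 (Arg) and 40.2 (Control) CPM, 1.54-fold by the raw ratio and under 1.5-fold after adding 5 CPM. Of 8 genes tested 2 were higher and 1 lower. Among receptors for microbial and damage signals, the lectin genes Clec4n (1038 (Arg) and 591 (Control) CPM) and Clec5a (146 (Arg) and 86.1 (Control) CPM) were higher, Clec5a only with the marker-carrying cells (log2 ratio 0.58 without), and none of 16 was lower, and Cd14 was at 1714 (Arg) and 1991 (Control) CPM.

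Saa3 and Wfdc21 had the lowest ratios of the ranked genes, and S100a9 and Serpinb2 were also among the 12 lowest. Saa3, serum amyloid A3, had 45 UMIs in Arg members and 1826 in Control members (3.01 (Arg) and 190.1 (Control) CPM, 63.2-fold higher in Control). These came from few cells, 1.35% of Arg and 6.57% of Control members, with up to 302 UMIs in 1 Control cell. Wfdc21 was at 1.94 CPM in Arg and 119 CPM in Control members, S100a9, a subunit of calprotectin, at 3.88 (Arg) and 55.8 (Control) CPM, and Serpinb2, plasminogen activator inhibitor 2, at 16.8 (Arg) and 95.9 (Control) CPM. Without the marker-carrying cells their log2 ratios were -4.57 for Saa3, -3.88 for Wfdc21, -2.93 for S100a9 and -2.38 for Serpinb2. S100a9 was also at 7.26 CPM in Arg and 72.8 CPM in Control T cells, and the part of free RNA in its difference was not tested.

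The other 8 of the 12 lowest genes rested on the marker-carrying cells. Col1a1, Col3a1 and Col1a2 encode fibrillar collagens, Sparc and Ccn1 matrix-associated proteins, and Ube2c a mitotic ubiquitin enzyme, and Rpl39l and Rhox5 completed the set. Col1a1 stood at 1.14 CPM in Arg and 63.0 CPM in Control members, and 96.0% of its Control UMIs lay in the 36 cells. Col1a1, Col1a2, Col3a1 and Sparc are in the fibroblast list by which those cells were chosen, so their concentration there follows from the choice. Without those cells Col1a1 was at 0.550 (Arg) and 2.91 (Control) CPM, and Ube2c at 15.3 (Arg) and 19.4 (Control) CPM instead of 17.2 (Arg) and 122 (Control) CPM. Of the 8, Ccn1 kept the largest log2 ratio, -1.0 against -2.61 with those cells. The others were at -0.76 for Col3a1, -0.53 for Rhox5, -0.51 for Col1a1, -0.49 for Rpl39l, -0.46 for Sparc, -0.42 for Col1a2 and -0.27 for Ube2c. Chosen again without them, the 12 lowest genes were Saa3, Wfdc21, S100a9, Serpinb2, Klf2, Tppp3, Cxcl3, Hp, Il6, Ifitm6, Hspa1a and Id3, with log2 ratios from -4.57 to -1.30.

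Klf2, a transcription factor that keeps monocytes and T cells quiescent, stood at 201 CPM in Arg and 785 CPM in Control members (3.91-fold higher in Control), and after thinning 29.0% of Arg and 60.5% of Control members had a UMI. With Egr1 (269 (Arg) and 431 (Control) CPM, log2 ratio -0.67, and -0.39 without the marker-carrying cells) it was 1 of 2 lower genes among 21 monocyte transcription factors, of which none was higher. Cebpb, Spi1 and Irf8 stayed within 1.5-fold. Immediate early and heat shock genes were lower, 8 of 20 with none higher (median -0.38). Without the marker-carrying cells 5 of 20 were lower, and Dnajb1, Egr1 and Ier2 did not pass (log2 ratios -0.55, -0.39 and -0.58). Hsph1 was at 42.7 CPM in Arg and 127 CPM in Control members, Hspa1a at 102 (Arg) and 236 (Control) CPM and Jun at 341 (Arg) and 684 (Control) CPM. These genes answer to tissue digestion as well as to other stress, and the medians of the list were -0.44 in Vcan-low monocytes and -0.26 in T cells. Ribosomal protein genes had a median of -0.28, with all 20 below 0 and none past 1.5-fold.

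F10 belongs to the rule, and its level is given above. Of 8 further coagulation and fibrinolysis genes with enough signal, 3 were lower in Arg members and none higher. They were F13a1, Serpinb2 and Thbd, which encodes thrombomodulin (28.5 CPM in Arg and 53.8 CPM in Control, and just under 1.5-fold with a common mix of sums, with a log2 ratio of -0.58). F5, factor V, which binds active factor X on membranes, was at 32.1 (Arg) and 49.4 (Control) CPM, F7 at 27.2 (Arg) and 19.9 (Control) CPM, and F3, tissue factor, at 34.9 (Arg) and 21.1 (Control) CPM, all under the 50 CPM limit. Plaur, the urokinase receptor, was at 1081 CPM in Arg and 938 CPM in Control members, and its ligand Plau at 124 (Arg) and 103 (Control) CPM.

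In the activin and TGF-beta list Inhba was the only gene of 10 past the limit, at 1.62-fold (1.56 to 1.68). It did not pass without the marker-carrying cells, where its log2 ratio was 0.55 instead of 0.69, and was 0.96 with a common mix of sums. An Inhba UMI was present in 49.4% of Arg and 34.2% of Control members after thinning, against 3.86% and 1.46% of T cells. The activin receptor gene Acvr2a was at 61.7 CPM in Arg and 46.5 CPM in Control members, and Tgfb1 at 226 (Arg) and 212 (Control) CPM. Among growth factors Pgf and Nrp2 were higher (51.3 (Arg) and 24.8 (Control) CPM, and 79.5 (Arg) and 46.3 (Control) CPM), Areg and Hbegf lower (112 (Arg) and 199 (Control) CPM, and 70.5 (Arg) and 110.5 (Control) CPM, with a log2 ratio of -0.37 for Hbegf without the marker-carrying cells), and Vegfa was at 385 (Arg) and 329.6 (Control) CPM.

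Since the diet removed arginine, genes that use, carry or rebuild it were listed. Nos2, which makes nitric oxide from arginine, stood at 108 CPM in Arg and 36.4 CPM in Control members (2.97-fold). Ass1, which rebuilds arginine from citrulline, was at 166 (Arg) and 61.3 (Control) CPM, and Slc7a2, a cationic amino acid carrier, at 123 (Arg) and 55.2 (Control) CPM. These 3 were the genes past 1.5-fold among 15 tested, with none lower and a median of 0.03. Arg1, the cytosolic arginase, did not pass (860.0 CPM in Arg and 673 CPM in Control), nor did Arg2 (412 (Arg) and 415 (Control) CPM). Asl, the partner of Ass1, was under 50 CPM in both libraries (21.4 (Arg) and 18.9 (Control) CPM). Nos2 and Slc7a2 were higher in Arg in C1q macrophages too (121 (Arg) and 19.7 (Control) CPM of Nos2, 93.0 (Arg) and 12.2 (Control) CPM of Slc7a2).

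Of 8 tested targets of ATF4, the factor induced when amino acids run short, none was 1.5-fold higher. Nupr1 was lower (66.8 CPM in Arg and 106 CPM in Control), but not past 1.5-fold without the marker-carrying cells (log2 ratio -0.30). Asns, asparagine synthetase, was at 15.4 (Arg) and 24 (Control) CPM and Trib3 at 4.61 (Arg) and 3.85 (Control) CPM. Glycolysis and hypoxia genes had a median of 0.16 with 1 of 23 higher, Hk3 (124 (Arg) and 75.2 (Control) CPM, log2 ratio 0.58 without the marker-carrying cells). The macrophage maturation list was mixed, with 3 of 18 genes higher (Fabp5 at 883 (Arg) and 429 (Control) CPM, Mrc1 at 625 (Arg) and 398 (Control) CPM, and Ms4a7) and 2 lower (Cd81 at 38.1 (Arg) and 70.2 (Control) CPM, and Selenop at 70.9 (Arg) and 117 (Control) CPM). Without the marker-carrying cells Mrc1 and Ms4a7 did not pass (log2 ratios 0.55 and 0.48).

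The members varied along the sum that chose them. Leaving out the marker-carrying cells, 308 Arg and 117 Control members had 4 or 5 UMIs of Vcan, Thbs1 and F10, 500 and 229 had 6 to 11, 355 and 227 had 12 to 23, and 229 and 320 had 24 or more, which was 16.5% of Arg and 35.8% of Control members. Over these 4 bins Fn1 stood at 495, 618, 761 and 938 CPM in the Arg library and 683, 814, 1052 and 1744 CPM in Control, and Slpi at 119.7, 189, 208 and 350.4 CPM in the Arg library and 125, 234, 369 and 592 CPM in Control. Inhba was at 531, 620.0, 712 and 824 CPM in the Arg library and 173, 285, 344 and 703 CPM in Control. All 3 were highest in the top bin of both libraries.

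H2-Aa was lowest in the top bin of both libraries, at 4155, 4029.6, 3414 and 2479 CPM over the Arg bins and 2469, 1521, 2074 and 848 CPM over the Control bins. Cxcl3 showed no such course in the Arg library (579, 438, 412 and 571 CPM), whereas the Control bins held 665, 503, 1092 and 2733 CPM, so that the libraries were close in the lower 2 bins and apart in the upper 2. Saa3 stood at 3.02, 3.18, 4.86 and 0.420 CPM over the Arg bins and 4.04, 73.9, 84.1 and 385 CPM over the Control bins, and Serpinb2 at 3.93, 16.1, 21.4 and 32.3 CPM (Arg) and 23.2, 31.1, 37.6 and 238 CPM (Control). The difference in Klf2 was present in every bin (187, 206, 236 and 159 CPM in Arg and 912, 941, 891 and 635 CPM in Control). Mmp12 declined over the Arg bins (2569, 2192, 1862 and 824 CPM) and lay above the Control bins throughout (593, 825, 555 and 393 CPM).

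**Figure D4:**
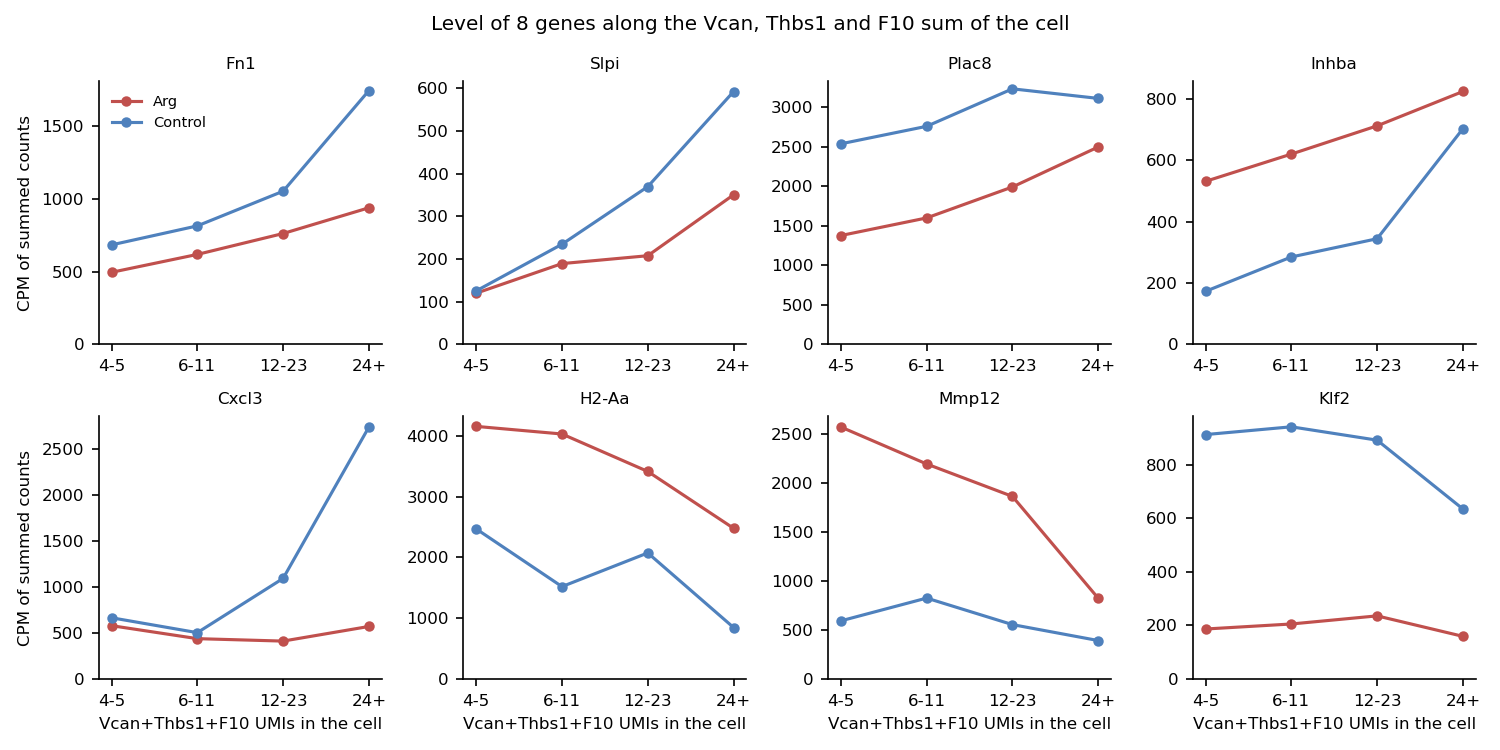
CPM of summed counts of 8 genes in members split by the sum of Vcan, Thbs1 and F10 UMIs of the cell, without the marker-carrying cells, 1 line per library. Fn1, Slpi and Inhba are highest at 24 or more UMIs in both libraries, and Cxcl3 in that bin stands at 571 CPM in Arg and 2733 CPM in Control members.

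The differences between the libraries were set beside those of the other cell groups, since all groups of a library share its mice and preparation. Pdcd1lg2 had a log2 ratio of 2.2 in members, 2.16 in Vcan-low monocytes and 2.89 in C1q macrophages. Klf2 was lower in Arg in every group shown, from -1.94 in interferon-high Vcan cells to -0.70 in T cells, and Ccl2 likewise (-0.72 in C1q macrophages, -1.04 in Vcan-low monocytes). Cxcl3 was lower in Arg in members, interferon-high Vcan cells and nonclassical cells (-1.49, -1.62 and -2.39) and higher in Vcan-low monocytes and C1q macrophages (0.66 and 0.94). Serpinb2 was lower in members (-2.21) and near 0 in Vcan-low monocytes (-0.08), where it stood at 8.45 CPM in Arg and 9.22 CPM in Control cells. Whether the ratios differ between groups was not tested, as there is 1 library per diet.

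**Figure D5:**
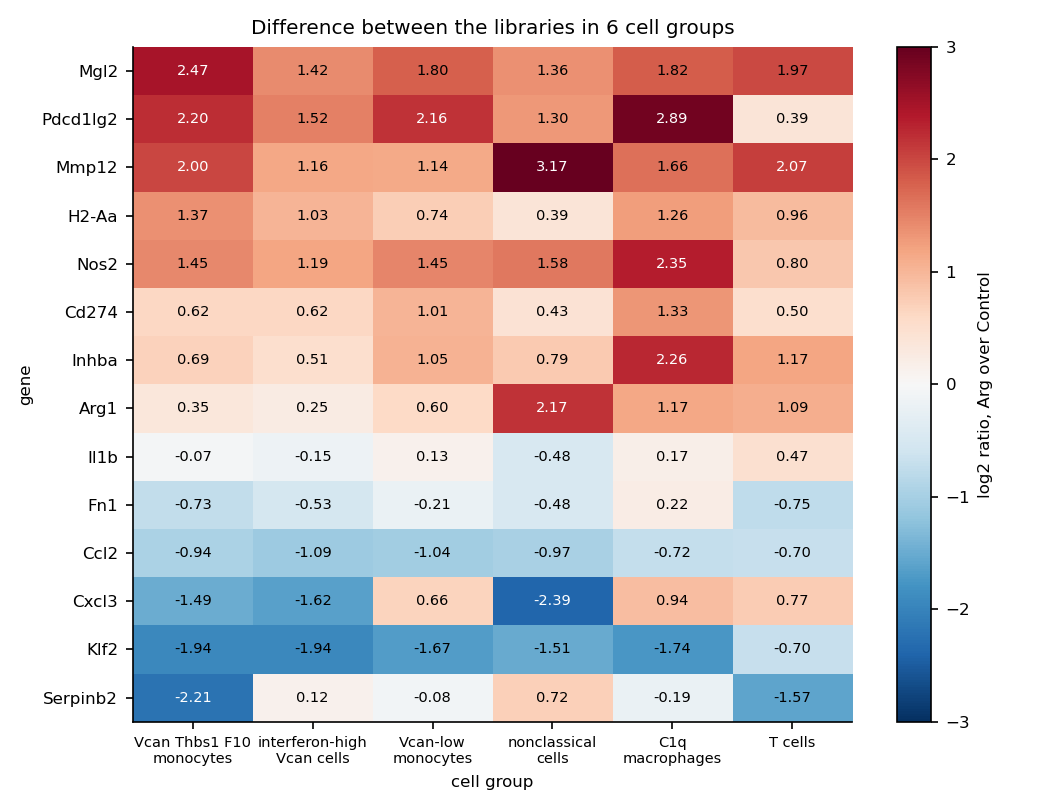
log2 ratio of Arg over Control for 14 genes in 6 cell groups, with the value in each field. Red is higher in Arg and blue lower. Klf2 and Ccl2 are below 0 in all 6 groups, and Cxcl3 is below 0 in 3 groups and above 0 in 3.

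Arg1 divided the members in both libraries. At least 3 Arg1 UMIs were present in 29.8% of Arg and 27.2% of Control members, and none in 55.2% and 62.9%. Ly6c2 stood at 211 CPM in Arg1-high and 852 CPM in Arg1-negative members of the Arg library, and at 197 and 691 CPM in the Control library. Plac8 was likewise lower in the Arg1-high cells (570.4 against 2547 CPM in the Arg library, 911 against 3675 CPM in the Control library), as was H2-Aa (2299 against 4199 CPM, and 799 against 1644 CPM).

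Mmp12, Spp1, Hilpda and Nos2 were higher in the Arg1-high members of both libraries. Mmp12 stood at 4266 CPM in Arg1-high and 719 CPM in Arg1-negative members of the Arg library, and at 1231 and 146 CPM in the Control library. Spp1, which encodes osteopontin, was at 4233 against 1829 CPM in the Arg library and 5151 against 1622 CPM in the Control library, and Hilpda, a lipid droplet gene known to be induced by hypoxia, at 1311 against 464 CPM and 1411 against 409 CPM. Nos2 was at 175 against 70.9 CPM in the Arg library and 86.0 against 11.7 CPM in the Control library. The Arg1-high cells were somewhat deeper, with medians of 10750.5 UMIs in the Arg library and 9003 UMIs in Control, against 8253 (Arg) and 8098 (Control) UMIs in Arg1-negative members. The split was chosen on these cells and is a description.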

How the data were processed

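Droplet single-cell RNA counts (10x Genomics 3′ v3) of 2 libraries, 1 per diet, were analysed from the deposited matrices. The values are UMI counts per gene and barcode, deposited by the authors without normalisation, for 32285 genes and 14540 (Arg) and 14343 (Control) barcodes. Per the submitters' processing notes, Cell Ranger 2.2.2 and GRCm38 were used, whereas the deposited file headers name cellranger 7.0.1, and which of these made the matrices is unclear. Whether introns counted towards a gene is not stated in these sources. Reads of near-identical families (Ly6, Ifit, Gbp, Hspa1a and Hspa1b, ribosomal proteins) can be split among copies, so values of such genes are uncertain.

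Barcodes with fewer than 200 genes or more than 10% mitochondrial UMIs were left out (665 Arg and 856 Control barcodes exceeded the mitochondrial limit). Members and gene lists were chosen with earlier results of these data known. Counts were summed over the cells of a group and library and scaled to 1000000 (CPM). Ratios were taken as log2 after adding 5 CPM, for genes with at least 50 CPM in either group, leaving out the 18 genes of the rule. With 1 library per diet no test was possible, and a fold limit of 1.5 between libraries, or 2 between members and Vcan-low monocytes, was used to describe genes. Named genes were the 12 highest and 12 lowest ratios of each comparison, without mitochondrial genes and predicted or Rik symbols, and genes of the lists. For each list the 2 highest and 2 lowest ratios were to be named, and further genes of a list were named after their values had been seen. T cells were barcodes with at least 3 Cd3d, Cd3e and Cd3g UMIs and fewer than 10 Lyz2 UMIs.

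Doublets were kept in the main values. Scrublet (scanpy 1.11.5, seed 1) called 6.83% of Arg and 5.57% of Control cells, and 3.56% of Arg and 2.26% of Control members, and these were left out in an alternative. Other alternatives changed the rule, the filter, the pseudocount, the weighting of cells and the scaling. Leaving out marker-carrying cells or cells with more than 30000 UMIs, and a common mix of sums, were added after seeing the data. The calculation of ratios, written again for a trial, was run on counts drawn from the summed Control profile of members with known changes. These counts had no variation between cells, so the trial says nothing of the calls in these data. Promoters were RefSeq windows on GRCm38.p6. Python 3.11.15, numpy 2.4.6, scipy 1.17.1, pandas 2.3.3 and matplotlib 3.10.9 were used.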

Additional observations from a re-analysis of the deposited data

Results flagged for a closer look

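Cxcl3 and Ms4a7 were singled out because the difference between the libraries had opposite signs in members and in Vcan-low monocytes. Cxcl3 had a log2 ratio of Arg over Control of -1.49 in members and 0.66 in Vcan-low monocytes. Ms4a7 had 0.62 in members and -0.69 in Vcan-low monocytes. With 1 library per diet the difference between these ratios was not tested.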

How the results depend on the processing

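No paired analysis was possible because each diet has 1 library. The log2 ratio of the members' share (0.55) was 0.77 with a sum of at least 2 UMIs, 0.28 with at least 8 and 0.39 when the rule was applied after thinning to 5000 UMIs. Genes higher in Arg (134) numbered 241 with a filter of 10 CPM and 286 with none. Genes lower in Arg (103) numbered 332 with a filter of 10 CPM, 562 with none, 63 as a mean of CPM per cell and 66 with members thinned to 5000 UMIs. Higher genes were 56.5% of the calls, 48.2% after centring on the median gene, 42.1% with the 10 CPM filter and 33.7% with no filter. Genes higher in members than in Vcan-low monocytes (13) numbered 23 with a sum of at least 8, 6 with 20 CPM added, and 20 with the 10 CPM filter or no filter. Gzma turned to -1.18 with called doublets left out. The median of the cell cycle list (-1.54 over 3 genes) turned to 0.33 as a mean per cell, 0.25 with thinned members, 0.38 without marker-carrying cells and 0.36 without cells over 30000 UMIs, and the number of its genes past the filter differed among these. For changes other than in the filter the cause was not tested. Changes of the filter, the pseudocount or the centring could not turn the sign of a gene past 1.5-fold. All alternatives reuse the same 2 libraries. Of the 98 named or listed genes past 1.5-fold, 97 kept their sign under all 15 alternatives, so this count is a description. Some were under 1.5-fold under an alternative not named with them in the report: Timp1 and Cd81 (both -0.39) and Clec4n (0.57) with thinned members, Nrp2 (0.58) with 20 CPM added and Selenop (-0.52) with a sum of at least 8. Low counts, such as 45 Saa3 UMIs in Arg members, limit the precision of the largest ratios.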
